A study of Bos taurus with 18 samples.

Results

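Coding insertions and deletions were the 1001 sites, of 112197 insertion and deletion sites in the deposited table, whose annotated effect was a frameshift or a gain, loss or change of whole codons. They fell in 895 gene models. Of the 1001 sites, 663 were annotated as frameshifts (602 gene models) and 338 as in-frame changes (319 gene models), and 26 gene models held both. The in-frame sites comprised 138 codon deletions, 116 codon insertions, 51 codon deletions that also changed a neighbouring codon and 33 such insertions. The genotypes came from poly(A) RNA of the pituitary and of the upper hypothalamus of 9 healthy Angus cows that were not in heat. At each age there were 3 cows: just weaned calves (6 months), sexually mature animals (18 months) and cows that had borne a first calf (30 months). The 18 libraries formed 6 groups of 3. The gene models carry numbers and no gene symbols, so neither the functions of the genes nor the markers of both tissues could be checked.

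The ribosome reads a coding sequence in codons of 3 bases. An insertion or deletion whose length is a multiple of 3 adds or removes amino acids and leaves the reading frame as it was, whereas any other length shifts the frame from that point on and usually brings an early stop codon. Transcripts with an early stop codon are often degraded by nonsense-mediated decay, and a second shift of opposite sign nearby can restore the frame.

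The sites the results turn on are of a few kinds, and an example of each shows its size. In the lines below, lower case gives the base before the change as the table lists it, and capitals mark the inserted or deleted bases, written on the strand of the chromosome. The first pair are frameshift insertions of a single base that were heterozygous in all 9 animals, followed by a whole-codon insertion, the most deeply read coding site, and a whole-codon deletion. The last 6 are 3 neighbouring pairs of an insertion and a deletion of equal length.
gene19192, insertion after 16:47994651: cA
gene737, insertion after 1:98195217: cT
gene25302, insertion after 22:13339745: aGCT
gene8650, deletion after 7:13896393: tGGC
gene7198, deletion after 5:120020018: cTTTTT
gene7198, insertion after 5:120020023: tAGCAG
gene25837, deletion after 22:57017137: gTTTT
gene25837, insertion after 22:57017141: tGAGA
gene8839, deletion after 7:17905891: cTTTTTCTT
gene8839, insertion after 7:17905899: tAGCACCAG
Positions are those of the table, whose genome build is not given in the sources used here. All these sites are annotated as coding sequence of the gene model named. In gene19192 the table writes the codon change as aaa/Aaaa and in gene737 as aaa/aaaA, so in both an A was added to an AAA codon.

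The libraries were of like depth in total but not at these sites. Between 28724861 and 38036840 reads were counted on gene models per library. A genotype was listed at 763 to 855 of the coding sites in 17 libraries, and at 326 to 446 it rested on at least 10 reads, the minimum used below. The 18-month pituitary replicate 3 stood apart with 397 and 149, although its total gene count was 33941804. Genotypes at the other insertions and deletions tied each pituitary library to the hypothalamus library of the same age and replicate number (92.0% to 93.0% identical genotypes, against at most 68.6% between other libraries), and each such pair was taken as 1 animal. An animal's genotype was the one its libraries shared, or the one with enough reads, and where its libraries disagreed it had none. By that rule 689 coding sites had a genotype in at least 1 animal (419 frameshift, 270 in-frame), 461 were non-reference in an animal (230 and 231) and 201 had a genotype in all 9 animals (73 and 128).

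A second split of the libraries concerned the reads that carried the alternative allele. In 6 libraries (6-month hypothalamus replicate 2, both libraries of the 6-month replicate 3, both of the 18-month replicate 1, and 18-month pituitary replicate 2), 0% to 0.485% of heterozygous 1-base insertions in untranslated regions (UTRs) were listed with 0 alternative reads. In the other 12 libraries this share was 6.39% to 12.4%. At frameshift insertions of 1 base it was 0 of 136 genotypes in the 6 libraries and 60 of 258 in the other 12. The labels name no batch that separates them, and no 30-month library is among the 6. Read shares are therefore given with and without these libraries.

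Length separated coding from untranslated sites. A length divisible by 3 was found at 33.8% of coding sites, 8.37% of the 8398 UTR sites and 8.33% of intron sites, with 8.77% over the whole table. The remainder was 1 at 511 coding sites and 2 at 152. Among coding sites 485 changed 1 base, 142 changed 2, 262 changed 3, 23 changed 4, 6 changed 5, 71 changed 6 and 12 were longer. Lengths of 3 and 6 bases made up 26.2% and 7.09% of coding sites against 6.56% and 1.79% of UTR sites, and lengths of 1 and 4 bases 48.5% and 2.30% against 64.9% and 6.14%. Coding sequence thus held a larger share than UTRs of both short lengths that keep the frame, and a smaller share of the lengths of 1, 2, 4 and 5 bases. Since the annotation assigns the frameshift class by length, no test was made between classes on length.

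**Figure D1:**
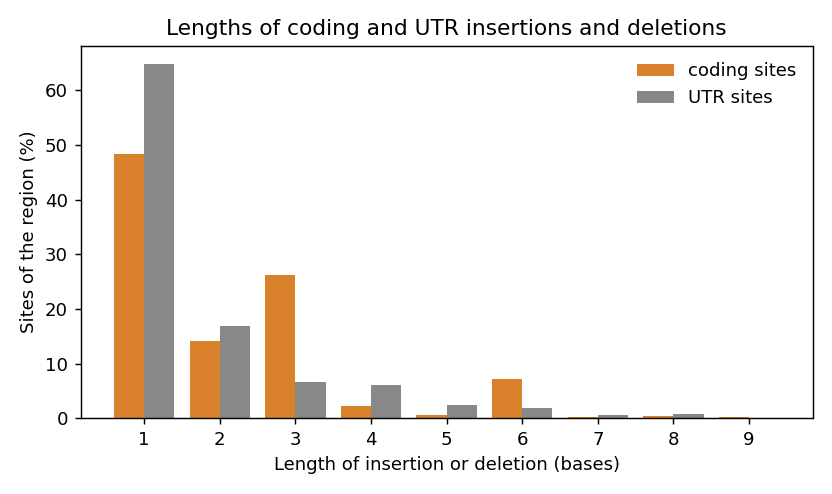
Share of coding (orange) and UTR (grey) sites, in percent of the 1001 and 8398 sites, at each length of the insertion or deletion from 1 to 9 bases. Coding sites exceed UTR sites at lengths of 3 and 6 bases, at 26.2% against 6.56% and 7.09% against 1.79%.

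The same held for the alleles each animal carried. Of the non-reference coding sites of an animal, 51.7% ± 1.52 (SD, n = 9 animals) had a length divisible by 3, with a lowest value of 49.1% and a highest of 54.3%. Of its non-reference UTR sites, 6.93% ± 0.268 did, from 6.50% to 7.32%. The groups of values did not overlap, and the difference of 44.8 ± 1.53 percentage points was positive in 9 of 9 animals (two-sided exact sign-flip permutation test over animals, p = 0.0039, the smallest that 9 animals allow; Benjamini-Hochberg adjusted over the 13 single-value tests, 0.0102). The 5′ UTR lay between, with 17.6% of its 897 sites divisible by 3 against 7.27% of the 7501 sites of the 3′ UTR.

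The longest coding changes were in frame and thinly read. The longest was a 36-base deletion in gene2921 at 3:17274624, with 118 reads over all libraries and the reference genotype in the 4 animals that had one. A 15-base deletion in gene19275 at 16:52425603 removed 5 codons, was read 366 times, and was heterozygous in 1 of 8 animals, with 47.8% alternative reads in its pituitary and 30.0% in its hypothalamus library. The 18-month replicate 2, whose libraries disagreed, was heterozygous in its pituitary library alone (40.7%). The 12-base insertion in gene28420 had 54 reads, at most 7 in a library, and no genotype by this rule. The longest frameshift was 8 bases.

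gene19275, deletion after 16:52425603: gTGGGCGAGCAGCGCT
gene28420, insertion after 25:38989029: aGCTGGCGCAGCC

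Insertions and deletions were nearly balanced, with 330 insertions and 333 deletions among frameshifts and 147 and 191 in frame. Direction was that of the first alternative allele listed. By it, 3 sites annotated as codon insertions count as deletions. In the class of codon deletions that changed a neighbouring codon, 1 site counts as an insertion. Single-base changes differed in composition. Of 286 frameshift insertions of 1 base, 224 (78.3%) added an A or a T, and 107 (37.4%) fell in a codon of 1 repeated base, 67 of them AAA. Of 199 frameshift deletions of 1 base, 88 (44.2%) removed an A or a T and 33 (16.6%) fell in such a codon. In UTRs, 80.8% of 1-base insertions and 71.3% of 1-base deletions were of A or T. Coding deletions were thus spread over the 4 bases (18.1% A, 28.6% C, 27.1% G and 26.1% T), while coding insertions had the A and T shares of UTR insertions.

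Frameshift and in-frame alleles were distributed differently over the 9 animals. Among the 73 frameshift sites with a genotype in every animal, 19 carried no alternative allele, 18 carried 1 to 4 of the 18 possible, 11 carried 5 to 13, 0 carried 14 to 17, and 25 carried all 18. Among the 128 in-frame sites these numbers were 0, 66, 42, 11 and 9. Most in-frame alleles were thus at low or middle frequency, while frameshift sites gathered at the ends of the scale: 26.03% had the reference genotype in all 9 animals and 34.2% were homozygous for the alternative allele in all 9. Of the UTR sites with 9 genotypes, 0.662% and 6.03% did so. These are counts of sites, not of animals, and were not tested. Sites at which the libraries of any animal disagreed are not among them. Such sites were 55 of 189 frameshift, 24 of 193 in-frame and 1309 of 4708 UTR sites with at least 6 genotyped animals. Their place on the scale is therefore not shown.

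**Figure D2:**
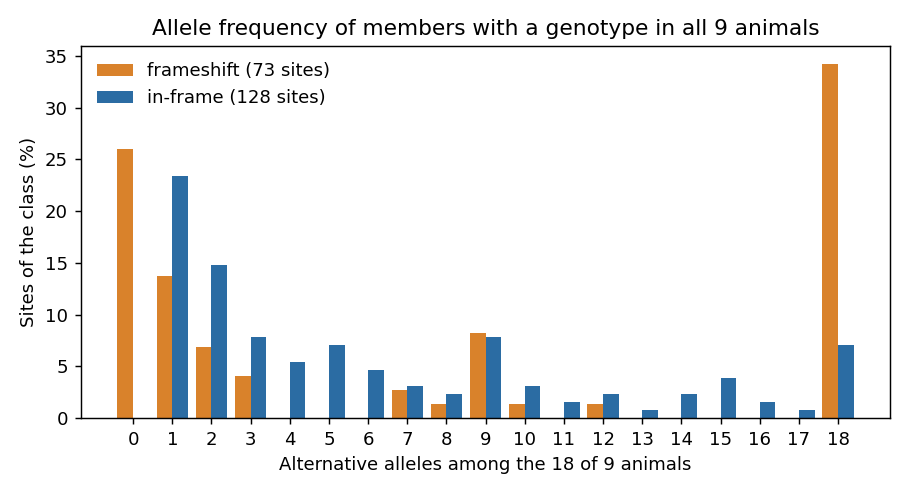
Share of frameshift (orange, 73 sites) and in-frame (blue, 128 sites) members, in percent of the class, with each number of alternative alleles among the 18 alleles of 9 animals. Frameshift sites gather at 0 (26.03%) and at 18 (34.2%), in-frame sites at 1 to 4. Sites at which the libraries of an animal disagreed are left out.

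The 19 frameshift sites with the reference genotype in all 9 animals were each listed because of a non-reference genotype in a library with fewer than 10 reads (19 of 19). Of them, 18 were deletions, 13 of 1 base. The other end held 12 insertions of 1 base, 4 longer insertions, 5 deletions of 1 base and 4 longer deletions, in 17 gene models. The most deeply read was a pair of 1-base insertions in gene2816 at 3:14814705 and 3:14814707, each with 3317 reads, where 100% of the allele reads carried the insertion in all 18 libraries. These 2 insertions add 2 bases and do not restore the frame. A lone insertion in gene6988 at 5:110626811, with 2153 reads, had an alternative-read share of at least 99.35% in the 17 libraries with a genotype. Reads at homozygous alternative frameshift genotypes carried the alternative allele at a mean of 99.9% (405 library genotypes), against 99.7% in frame (396).

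Across animals the mean alternative allele frequency was 29.5% ± 1.26 (SD, n = 9) at frameshift sites and 31.6% ± 1.93 at in-frame sites with a genotype in at least 6 animals. The frameshift value was lower in 7 of 9 animals, and the mean difference of -2.12 ± 2.52 percentage points did not pass the adjusted threshold (exact sign-flip permutation test, p = 0.0352, adjusted 0.0508). It did pass on autosomes (-2.48 points, adjusted p = 0.0226), without members within 30 bases of another (-7.30, 0.00846) and, by single animals left out, when the 18-month replicate 2 (-2.57, 0.0226) or the 6-month replicate 3 (-2.49, 0.0451) was dropped, all by exact permutation. The direction depended on which sites were kept. With genotypes of at least 20 reads the frameshift mean was 3.21 points higher, with only the sites genotyped in all 9 animals it was 9.71 points higher, and with genotypes of any depth the difference was -7.30 points (adjusted p = 0.00846 in all 3, exact permutation). Keeping only sites genotyped in all 9 animals also left out every site at which the libraries of an animal disagreed. The sites themselves differed in depth, with a median of 6.53 reads per listed genotype at frameshift sites and 14.1 at in-frame sites. The gene models that held them had median levels of 2.84 and 5.67 FPKM (fragments scaled by gene model length and library total), against 0.932 over all 27376 gene models.

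Neighbouring frameshifts often cancelled. Of 20 pairs of frameshift sites in 1 gene model that lay at most 30 bases apart, 17 had a net length of 0, an insertion and a deletion of the same number of bases. They lay in 17 gene models. At larger distances, 28 of 50 pairs had a net length divisible by 3 and 19 a net length of 0. Both sites of a close compensating pair had the same number of alternative alleles in 77 of 77 animal genotypes, and 7 of these pairs were homozygous for both changes in every animal with a genotype. Close frameshift pairs that did not compensate were alike in 16 of 16. Sites this close often had equal read totals, such as 497 and 497 in gene7198, and animals with disagreeing libraries were left out. Like genotypes at both sites were therefore likely beforehand. The pairs were examined after the allele frequencies had been seen, and no test was made of them.

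**Figure D3:**
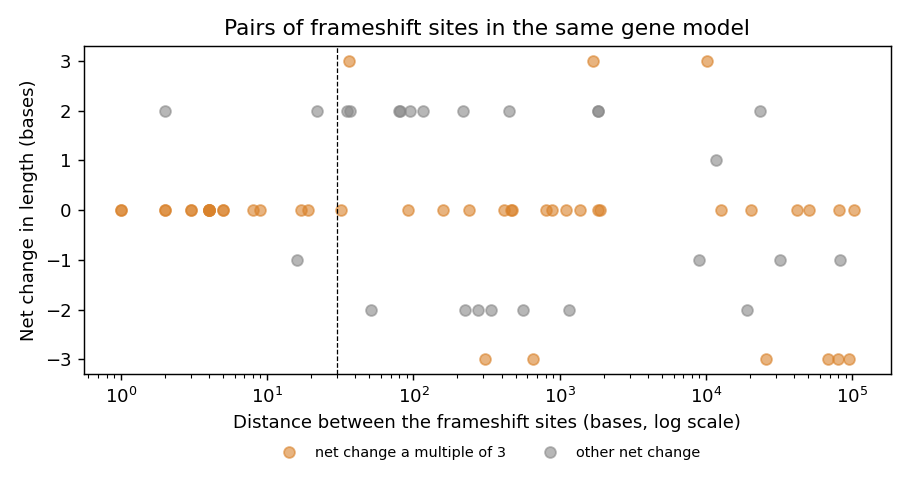
Net change in length, in bases, of each pair of frameshift sites in the same gene model against their distance in bases on a log scale, with pairs whose net change is a multiple of 3 in orange and others in grey, and a dashed line at 30 bases. Left of the line, 17 of 20 pairs lie at 0.

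The sequences printed above show the form these pairs took. In gene7198 the deletion of 5 bases ended where the insertion of 5 others began, so that TTTTT was replaced by AGCAG with no change in length. Both sites had 497 reads, 11 to 45 per library, all of which carried the change, and both were homozygous in 9 of 9 animals. In gene25837 TTTT was replaced by GAGA in 8 of 8 animals (219 reads at each site). In gene8839 the replaced stretch was 8 bases long, TTTTTCTT by AGCACCAG, but no animal had a genotype of at least 10 reads at both sites. Longer spacings also occurred. In gene17218 an inserted T at 14:79819653 was followed after 4 bases by the deletion of a C at 14:79819657, homozygous in 9 of 9 animals with 1624 and 1625 reads. A pair that was not fixed was alike as well. In gene12894 (10:56387228 and 10:56387229) both changes were heterozygous in the same 1 of 7 animals and absent in the other 6. The heterozygous call rested on 1 library with 30.0% alternative reads. Each site had 5 alternative reads among 259 over all libraries.

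Not every close set of sites was compensated, and 1 of the 17 pairs had another frameshift beside it. In gene8973 a deletion, an insertion and a deletion of 1 base followed each other at 7:21381302, 7:21381334 and 7:21381353, all homozygous in 9 animals. The last 2 form a pair of net length 0 and are counted among the 17, but the sum of all 3 is a net loss of 1 base. In gene8783 insertions of 1 base (7:16708857) and 2 bases (7:16708893), 36 bases apart, add 3 bases in sum and were homozygous in 9 animals with 1454 and 1530 reads. Close in-frame neighbours were found too. In gene2120 a 3-base insertion (2:120045297) was homozygous in all 9 animals, a 6-base deletion (2:120045327) was heterozygous in 4 and homozygous in 1, and a 3-base deletion (2:120045339) was heterozygous in 5 and homozygous in 1.

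The compensating pairs held 34 of the 663 frameshift sites (5.13%) but 10 of the 25 that were homozygous in all 9 animals, and 0 of the other 48 frameshift sites with 9 genotypes. They gave 116 of 354 (32.8%) of all homozygous alternative frameshift genotypes of the animals. An animal was homozygous for 39.3 ± 3.24 (SD, n = 9) alternative frameshift sites, from 35 to 45, and for 26.4 ± 3.09, from 22 to 33, when the members of such pairs were not counted. With the pair of gene8973 not taken as compensating, the pairs numbered 16, of which 6 were homozygous in every animal with a genotype. They then held 32 frameshift sites, 8 of the 25, and 98 of the 354 genotypes (27.7%), and an animal was homozygous for 28.4 ± 3.09 sites outside them.

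Heterozygosity was measured as the share of an animal's non-reference genotypes that were heterozygous. Sites at which the libraries of an animal disagreed do not count for that animal. A mean of 15.5% of frameshift genotypes with at least 10 reads in both libraries were lost in this way, against 2.55% of in-frame ones. How far this moved the heterozygous shares was not tested. The heterozygous share was 54.6% ± 3.18 (SD, n = 9; lowest 48.9%, median 56.04%, highest 58.3%) at frameshift sites, of which an animal had 82 to 91. It was 63.6% ± 5.32 (53.1%, 64.4% and 69.5%) at in-frame sites, of which an animal had 81 to 101. The ranges overlapped. Frameshift sites were lower in 8 of 9 animals, with a mean difference of -8.93 ± 5.95 points (exact sign-flip permutation test, p = 0.0117, adjusted 0.0218), and the exception was the 18-month replicate 2 with 58.3% against 53.1%. The call was lost without the neighbouring sites. Without members within 30 bases of another member, the difference was 0.343 points in the other direction (p = 0.910, exact permutation). It also did not pass without the 6 libraries described above (-7.43 points, adjusted p = 0.0677, exact permutation over 7 animals). UTR sites of lengths not divisible by 3 had 78.9% ± 1.13, above every frameshift value. Of the 8398 UTR sites, 1508 listed more than 1 alternative allele, against 9 of 663 frameshift and 9 of 338 in-frame sites. Such a site took its length from the first alternative, and the reads of its alternatives were summed. A genotype of unlike alternative alleles counted as heterozygous. How far such sites moved the UTR values, here and below, was not tested. The difference, frameshift minus UTR, was -24.3 ± 3.19 points and negative in 9 of 9 animals (p = 0.0039, the smallest possible, adjusted 0.0102, exact permutation). It was -12.6 points without members within 30 bases of another and -37.3 points with only the sites genotyped in all 9 animals, both past the threshold. In the latter sites, none of which had an animal with disagreeing libraries, the frameshift minus in-frame difference was -27.9 points. With genotypes of any depth that difference was -16.6. Synonymous single-base sites in the same animals had 63.9% ± 3.00 over 10190 to 13265 non-reference sites each.

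The heterozygous share depended on the kind of frameshift. Insertions of a single A or T were heterozygous in 78.1% ± 3.25 (SD, n = 9) of non-reference genotypes, and insertions of a single C or G in 17.8% ± 12.1. Frameshift deletions had 46.02% ± 3.61. In UTRs the values for A or T and for C or G insertions were 86.3% ± 0.811 and 58.3% ± 4.66. In-frame insertions and deletions had 59.8% ± 8.27 and 66.6% ± 6.08. The values for A or T insertions, C or G insertions and deletions are described here without a test.

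Alternative alleles of frameshifts also took fewer of the reads. At heterozygous genotypes with at least 20 allele reads, the median share of reads with the alternative allele was 20.6% ± 3.10 (SD, n = 9 animals; lowest 16.1%, median 20.3%, highest 26.9%) at frameshift sites, over 20 to 31 sites per animal. It was 42.2% ± 1.39 (39.96%, 42.1% and 43.9%) at in-frame sites, over 24 to 53 sites. No animal's frameshift value reached any in-frame value. The difference was -21.6 ± 3.10 points in 9 of 9 animals (exact sign-flip permutation test, p = 0.0039, the smallest possible, adjusted 0.0102). Animals shared sites, and 12 frameshift sites were heterozygous in at least 7 animals. The p-value thus measures the spread between animals, not between sites. UTR sites gave 39.2% ± 0.9803 at lengths not divisible by 3 and 41.8% ± 1.11 at multiples of 3. That contrast of -2.55 ± 1.68 points was negative in 8 of 9 animals (p = 0.0078, adjusted 0.0169, exact permutation). The coding contrast was larger, with a difference of contrasts of -18.998 ± 2.62 points, negative in 9 of 9 animals (p = 0.0039, adjusted 0.0102, exact permutation). Synonymous single-base sites gave 48.2% ± 0.123.

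Frameshift insertions of a single base had the low share, at 16.9% ± 2.49 (SD, n = 9; 12.4% to 20.7%). The few longer frameshift insertions had 36.3% ± 3.47 (n = 5 animals, at most 2 sites each). All frameshift insertions together had 16.9% ± 2.49 and frameshift deletions 45.4% ± 6.00 (39.7% to 60.0%), the latter over 2 to 8 sites per animal. In a comparison chosen after these values were seen, insertions minus deletions was -28.4 ± 6.57 points, negative in 9 of 9 animals (unadjusted p = 0.0039, exact permutation). In-frame insertions and deletions, at 42.1% ± 2.45 and 41.6% ± 1.49, differed by 0.520 ± 3.21 points (5 of 9 animals higher for insertions, p = 0.641, exact permutation). With deletions only, the frameshift minus in-frame difference was +3.76 points (p = 0.0820, exact permutation), and the difference of contrasts with UTRs was +4.49 points (adjusted p = 0.0564), so the lower share was not found for frameshifts by deletion. UTR insertions of 1 base had 33.2% ± 1.50, below UTR deletions of 1 base at 42.3% ± 1.41 and above the frameshift insertions. The difference between frameshift and UTR insertions of 1 base, also chosen after the values were seen, was -16.3 ± 2.16 points in 9 of 9 animals (unadjusted p = 0.0039, exact permutation).

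**Figure D4:**
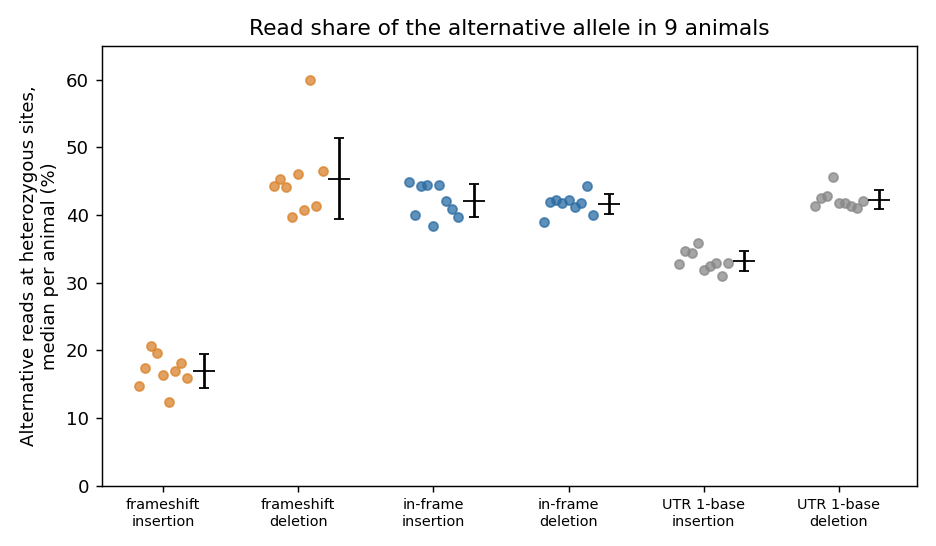
Median share of reads with the alternative allele, in percent, at heterozygous sites of each of 9 animals (points) for frameshift (orange), in-frame (blue) and 1-base UTR (grey) insertions and deletions, with the mean and SD as a bar and whiskers. Frameshift insertions lie between 12.4% and 20.7%, below all other points.

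The inserted base and the libraries both moved with this share. Coding insertions of a single A or T had 16.5% ± 2.48 (SD, n = 9) and the few of a C or G 37.5% ± 12.7 (n = 7 animals, at most 2 sites each). The UTR values were 30.5% ± 2.17 and 41.05% ± 1.203. In the 6 libraries with almost no heterozygous genotype at 0 alternative reads, the library medians at frameshift insertions of 1 base ran from 16.7% to 21.7%, and in the other 12 from 12.7% to 19.6%. The frameshift minus in-frame difference was -21.3 ± 0.442 points within the 6 (4 animals, where an exact permutation test cannot go below p = 0.125) and -21.7 ± 3.15 within the other 12 (7 animals, p = 0.0156, adjusted 0.0254, exact permutation). The size of the contrast was therefore nearly the same within each set of libraries. The part of the inserted base in the result was not tested.

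Frameshifts that were heterozygous in nearly every animal had this form. Of 12 frameshift sites heterozygous in at least 7 animals, 12 were insertions of 1 base, and in 11 the alternative reads made up less than 30% (median of the 12, 16.3%). The 4 in-frame sites of that kind had a median of 48.0%. The most deeply read frameshift, the inserted A in gene19192 (6701 reads, a gene model at 187 FPKM), was called heterozygous in all 18 libraries. Its alternative-read share had a median of 4.72%, a lowest value of 2.11% (6 of 284 reads, 95% Wilson interval 0.972% to 4.53%) in the 30-month pituitary replicate 2 and a highest of 21.5% (69 of 321 reads, 17.4% to 26.3%) in the 6-month hypothalamus replicate 3. Shares of 12.99% and more were found in 7 libraries, the 6 set apart above and the 30-month pituitary replicate 1 (18.1%), and all other libraries were at 5.34% or lower. In gene19192, 5318 of the 6701 reads were listed for the reference and 593 for the insertion, and the rest for neither. Shares are of the reads listed for an allele.

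The inserted T in gene737 followed the same libraries. It was called heterozygous in 18 of 18 libraries, with 11.4% to 17.4% alternative reads in the 6 libraries, 0.909% in the 6-month pituitary replicate 2 and 0% in the other 11. A count of 0 among the 209 allele reads of the 18-month pituitary replicate 3 allows up to 1.80% by the Wilson interval. In gene737, 2694 of the 3341 reads were listed for the reference and 142 for the insertion, and the rest for neither. What the reads listed for neither allele carried was not tested. Heterozygous calls with 0 alternative reads were 101 of 880 frameshift library genotypes (11.5%, at 22 sites), 2 of 961 in-frame ones (0.208%) and 5.29% of UTR ones. Of the always heterozygous frameshifts, the inserted A in gene26856 (23:34219669) differed: its share was 33.8% to 74.0% (median 52.9%) over the 18 libraries, with no separation of the 6. Intervals cover counting error only, since reads are not independent molecules.

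The most deeply read whole-codon changes varied in their share of reads. The GCT insertion in gene25302 was the most deeply read coding site (8122 reads, 394 to 513 per library, 360 FPKM). It was homozygous in 6 animals and heterozygous in 3, with 38.1% to 45.7% alternative reads in the 6 heterozygous libraries and 97.4% or more in the 12 homozygous ones, and both tissues of every animal agreed in genotype. The GGC deletion in gene8650 (4455 reads) was heterozygous in 2 animals at 41.6% to 49.1% and homozygous in 7. The AGC deletion in gene15401 (13:5606810, 2858 reads) was reference in 2 animals, heterozygous in 4 at 38.1% to 44.9% and homozygous in 3. Lower shares were found at the GGG insertion in gene20347 (17:70714580, 4385 reads), heterozygous in 4 animals at 21.1% to 39.9%, and at the CTT deletion in gene20668 (18:8767931, 2733 reads), heterozygous in 2 animals at 31.6% to 39.1%. The AGC insertion in gene28127 (25:27526687, 6391 reads) was heterozygous in 1 library only of each of 2 animals, at 38.5% and 40.3%, and reference in the other 7. The 3-base deletion in gene2120 at 2:120045339 took 8.00% to 23.3% of the reads in its heterozygous libraries and at least 98.1% in its homozygous animal. The TCC insertion in gene25010 (21:67073562, 1378 reads) was heterozygous in 1 animal, at 4.69% and 43.2% in its 2 libraries.

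Frameshift genotypes differed more often than in-frame ones between both libraries of an animal. Where both had at least 10 reads, 15.5% ± 3.22 (SD, n = 9 animals; 11.05% to 22.03%) of frameshift genotypes differed, over 59 to 181 sites, against 2.55% ± 1.33 (0.575% to 4.57%) of in-frame ones. The ranges did not overlap, and the difference of 12.9 ± 3.81 points was positive in 9 of 9 animals (exact sign-flip permutation test, p = 0.0039, the smallest possible, adjusted 0.0102). With genotypes of any depth it was 7.79 points, also past the threshold. Synonymous single-base sites differed at 0.505% ± 0.184. The sites with the most discordant animals were frameshift insertions: gene12032, gene6645, gene4448 and gene27797 added 1 base and disagreed in 6 animals each. In gene12032 (10:9146034, 723 reads) heterozygous calls had 0% to 23.8% alternative reads, and all 6 heterozygous calls outside the 6 libraries had 0 alternative reads, among 13 to 46 allele reads.

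The 2 tissues did not differ detectably in the counts and read shares tested. A library had 165 ± 32.8 (SD, n = 9) non-reference coding sites in the pituitary and 168 ± 16.1 in the hypothalamus (difference -3.56, p = 0.856, adjusted 0.928, two-sided exact permutation test over libraries). Frameshifts were 49.8% ± 2.44 and 49.8% ± 2.56 of them (p = 0.973, exact permutation). The lowest pituitary count was 81, in the 18-month replicate 3, and the other 8 were 159 to 185. Without that library the difference was +6.90 sites. Whether the share of alternative reads differed between both tissues of an animal was tested with limma on all 3145 sites heterozygous in both libraries of at least 3 animals. None passed an adjusted p of 0.05 (0% called), and 3.66% had an unadjusted p under 0.05. Of the 60 coding sites tested, 20 of them frameshifts, 0 passed and 4 had an unadjusted p under 0.05. The median standard error of a coding site was 0.33 on the log2 scale of the ratio of alternative to reference reads. Genotypes that differed between both libraries of an animal were not part of this test. The frameshift minus in-frame difference in read share was -20.9 ± 3.77 points in the pituitary and -23.9 ± 2.64 in the hypothalamus (SD, n = 9). These differed by 3.00 ± 4.31 points (unadjusted p = 0.0586, exact sign-flip permutation test over animals).

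Across ages, the number of non-reference coding sites per animal was 181 ± 8.02 in 6-month cows, 177 ± 10.1 in 18-month cows and 181 ± 4.51 in 30-month cows (SD, n = 3 each; p = 0.771, exact permutation test over animals). Frameshifts made up 47.6% ± 0.492, 49.7% ± 1.28 and 47.6% ± 1.77 (p = 0.154, adjusted 0.200, exact permutation). The heterozygous share of coding sites was 63.1% ± 0.733, 56.6% ± 2.68 and 58.3% ± 1.07 (p = 0.0143, adjusted 0.0232, exact permutation), and each 6-month animal (62.4% to 63.9%) lay above every older one (54.4% to 59.6%). The separation was widest at in-frame sites, with 69.0% ± 0.581, 58.2% ± 4.59 and 63.5% ± 2.05. Frameshift sites had 56.6% ± 0.910, 54.8% ± 5.16 and 52.5% ± 0.684. The age call did not pass with genotypes of any depth (adjusted p = 0.613), with at least 20 reads (0.108) or without the 6-month replicate 2 (0.0516), all by exact permutation. Synonymous single-base sites had 65.1% ± 4.99, 63.7% ± 2.65 and 62.8% ± 0.236 at the 3 ages. Each age is a different set of 3 cows, so age and the animals' own ancestry cannot be told apart.

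**Figure D5:**
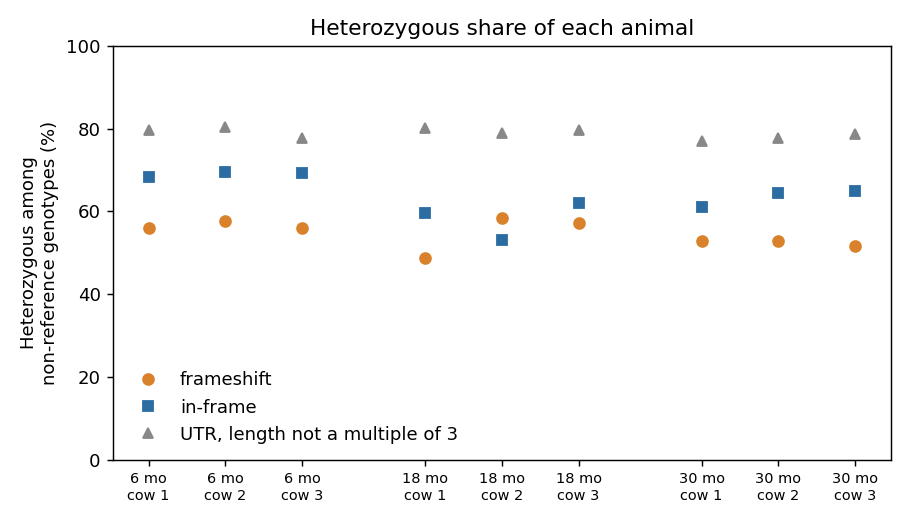
Heterozygous share, in percent of non-reference genotypes, at frameshift (orange circles), in-frame (blue squares) and UTR sites of lengths not divisible by 3 (grey triangles) for each of 9 animals, grouped by age in months. UTR values lie above all coding values, and frameshift lies below in-frame in all animals but the second at 18 months (58.3% against 53.1%).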

How the data were processed

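Members and lists were chosen with earlier results of these data known. Per the labels' protocols, poly(A) RNA of 18 libraries was sequenced, and the tools in the submitters' processing notes are GATK, HISAT2, StringTie and DESeq. Their roles and versions and the genome build are not given in the sources used here. The deposited insertion and deletion table gives, per the file headers, a genotype, a read count of depth and the read counts of the alleles. These are given for each site and library. A deposited table of single-base variants, of the same form, served for synonymous sites. Per the file headers, read counts and FPKM per gene model were also deposited by the authors. Columns were matched to samples by their codes.

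Genotypes needed 10 reads in a library, read shares 20 allele reads, allele frequencies 6 animals. Shares are medians over the sites of an animal. Libraries of an animal were found from genotypes at other insertions and deletions (20 reads in both) and share age and replicate number, so the replicate number pairs the tissues. Tests were two-sided exact permutation tests over animals or libraries, adjusted by Benjamini-Hochberg over 13. Animals shared many sites, such as the 25 frameshift sites homozygous in all 9 animals. The p-values over animals therefore measure the spread between animals at the listed sites, not the spread between sites. The site test was limma 3.58.1 (R 4.3.3) on paired log2 odds with weights from the reads. In simulated data it called 45 of 100 sites changed by 1 in log2 odds and 88 of 100 changed by 2. It also called 11 of 2945 unchanged sites. Python 3.11.15, numpy 2.4.6 and pandas 2.3.3 were used.

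Apart from the close pairs, members were named from lists set by rule, and not every member of a list is named. The lists held the 3 most read of each effect class and the 5 most read frameshifts homozygous in 9 animals. They also held the 5 frameshifts heterozygous in most animals and the 5 longest members. The last lists were the 5 gene models with most members and the 5 sites with most discordant animals. The close pairs and the 6 libraries were singled out after their values were seen. No gene symbol could be matched, so the gene and marker lists were not run.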

Additional observations from a re-analysis of the deposited data

Results flagged for a closer look

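In the pituitary, the 18-month replicate 3 had 81 non-reference coding sites, far below the other 8 libraries of that tissue (159 to 185), as it also had fewer sites with 10 reads. In the hypothalamus, the 18-month replicate 2 had a frameshift share of 55.8% among its non-reference coding sites, above all other libraries of the tissue (lowest 47.02%). In all, 16 groups of values were checked for a sample far from the rest, and chance sets off about 1 in 20 such groups.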

How the results depend on the processing

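The difference in allele frequency between frameshift and in-frame sites was -7.30 points with genotypes of any depth, +3.21 with at least 20 reads, +9.71 with sites genotyped in all 9 animals, -2.48 on autosomes, -7.30 without members within 30 bases of another, and -2.57 to -1.59 with 1 animal left out. It passed the threshold with any depth, on autosomes, without close members, and without the 18-month replicate 2 or the 6-month replicate 3. With the opposite sign it also passed with at least 20 reads and with sites genotyped in all 9 animals. The settings on neighbours, on the library with few reads, on the 6 libraries and on genotypes at 0 alternative reads were chosen after seeing the data. With deletions only, the read-share difference was 3.76, the UTR contrast -0.738 and the difference of contrasts 4.49. In only the 6 libraries these were -21.3, -1.42 and -19.9, and the heterozygous differences were -4.38 against in-frame and -21.9 against UTR sites, none past the threshold with 4 animals. Without the 6 libraries the heterozygous difference was -7.43, and without close members 0.343. The age range of heterozygosity was 3.82 points with any depth, 6.27 with 20 reads, and 5.45 to 8.03 with 1 animal left out. The tissue difference in sites was 0.444 with 20 reads and 1.56 with sites genotyped in all 18 libraries, and -7.33 to 6.90 with 1 library left out. The tissue difference in frameshift share was 1.48 with any depth, 1.52 with 20 reads, 1.14 with sites in all 18 libraries, and -0.458 to 0.707 with 1 library left out. The UTR contrast in read share also ran from -5.37 with pooled reads to -1.47 with 50 allele reads. The cause of these changes was not tested. With animal as a replicate block, the tissue differences stayed -3.56 (p = 0.887, exact permutation) and -0.0422 (p = 0.961, exact permutation), and the site test, paired by animal, gave 0 calls with and without the block. It gave 0 to 1 calls with 1 animal left out, the 1 without the 18-month replicate 1. All other results kept their direction and call under the settings run.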
